A study of Mus musculus with 6 samples.

Results

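The S100 genes expressed in mouse liver and Csf3r, the gene of the granulocyte growth factor receptor, were followed across 6 liver libraries. The 10 genes (S100a1, S100a4, S100a6, S100a8, S100a9, S100a10, S100a11, S100a13, S100a16 and Csf3r) were selected by gene symbol from the 56674 rows of the count table, and each symbol matched a row. The list was drawn up with counts and results of these libraries known, so the values of its members between the diets are a description and not a test of the list. The animals were male C57BL/6 mice, a common inbred strain, reared for 71 weeks in both groups. How long they ate the chow is not stated beyond that. The tested chow contained polypropylene black microplastic (PB-MP, 3 libraries), and the control group ate normal chow (control, 3 libraries). The study asked whether long exposure to this plastic through the diet alters gene expression in the liver. Nothing in the labels ties the 3 libraries of a diet to separate animals, and p-values then measure the spread between these libraries, which may be technical.

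S100 proteins are small calcium-binding proteins with a pair of EF-hand motifs, which mostly work as dimers and act by binding other proteins rather than as enzymes. S100a8 and S100a9 encode the chains of calprotectin, a heterodimer stored in the cytosol of neutrophils and monocytes that binds zinc and manganese and, once released, signals through Toll-like receptor 4 and the receptor Ager. Csf3r encodes the receptor of granulocyte colony-stimulating factor (G-CSF) and is found mainly on neutrophils and their precursors. The other S100 genes are expressed in epithelial, mesenchymal or muscle cells and bind annexins, cytoskeletal proteins or calcium channels.

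The S100 genes of the list all lie on chromosome 3 and Csf3r lies on chromosome 4. RefSeq promoter windows on the build GRCm38.p6, which run from 250 bases before to 50 bases after the annotated start, were found for 9 of the 10 genes, all but S100a10. The counts themselves carry no coordinates, and the submitters' processing notes name GRCm39. The windows of the granulocyte genes S100a8, S100a9 and Csf3r are printed because these are the members whose counts stood higher in every PB-MP library. Capitals mark matches, on either strand, to any of 4 motifs. The C/EBP motif was searched as TTGCNNAA, a simplified form of the letters that family prefers. For PU.1 the core GAGGAA was searched on both strands. As a TATA box the letters TATAAA were used, and overlap between motifs was allowed. As a GC box the letters GGGCGG were used.

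S100a8, chr3:90668821-90669120, plus strand: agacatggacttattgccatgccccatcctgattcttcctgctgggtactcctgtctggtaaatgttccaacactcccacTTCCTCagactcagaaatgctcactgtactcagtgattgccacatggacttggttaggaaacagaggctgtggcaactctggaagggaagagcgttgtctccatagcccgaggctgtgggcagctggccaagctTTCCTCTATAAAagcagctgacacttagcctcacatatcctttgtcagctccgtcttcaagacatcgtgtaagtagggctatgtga
S100a9, chr3:90695672-90695971, minus strand: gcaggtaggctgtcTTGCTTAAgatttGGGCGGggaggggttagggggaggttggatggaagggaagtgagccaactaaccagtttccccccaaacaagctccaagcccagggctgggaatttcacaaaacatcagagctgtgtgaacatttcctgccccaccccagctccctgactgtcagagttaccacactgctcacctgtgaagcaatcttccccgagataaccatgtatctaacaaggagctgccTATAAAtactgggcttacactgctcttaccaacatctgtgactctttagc
Csf3r, chr4:126024409-126024708, plus strand: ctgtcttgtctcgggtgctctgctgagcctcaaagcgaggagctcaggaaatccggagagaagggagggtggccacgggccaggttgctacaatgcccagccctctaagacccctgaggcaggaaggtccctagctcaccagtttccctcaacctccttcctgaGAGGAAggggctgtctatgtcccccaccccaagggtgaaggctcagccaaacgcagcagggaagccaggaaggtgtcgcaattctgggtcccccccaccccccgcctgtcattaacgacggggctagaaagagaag

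C/EBP factors and PU.1 are transcription factors of the myeloid lineage. The S100a8 window held the PU.1 core on the opposite strand at -170 and -36, counted from the annotated start to the first letter of the match, and a TATA box at -30 that adjoins the match at -36 without overlap. The S100a9 window held a C/EBP match at -236, a GC box at -223 and a TATA box at 1. The Csf3r window held the PU.1 core at -86 and none of the other motifs. Matches were also found in windows of S100a4, S100a11 and S100a16, among them 3 GC boxes in that of S100a11. Of 32851 RefSeq windows of this length, 10.8% held the C/EBP motif, 28.3% the PU.1 core, 13.6% the TATA box and 35.7% the GC box. A match is a description of letters and not a binding site.

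S100a1 and S100a13 lie head to head, and their windows share 204 bases on opposite strands. The shared bases are printed as read for S100a13, because the reads of these neighbours differed so widely, as described with the levels. They held none of the motifs on either strand.

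S100a1 and S100a13, chr3:90514281-90514484, plus strand: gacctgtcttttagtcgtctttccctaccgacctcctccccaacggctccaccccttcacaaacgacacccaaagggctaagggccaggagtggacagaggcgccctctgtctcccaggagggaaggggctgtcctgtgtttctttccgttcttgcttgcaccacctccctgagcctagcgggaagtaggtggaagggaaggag

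Values are raw counts of reads per gene from poly(A)-selected libraries, or counts per 1e6 reads (CPM) scaled by the trimmed mean of M-values (TMM). The libraries held between 70603124 and 90483598 reads in PB-MP and between 68357478 and 112566641 in control. Where a gene had 0 reads, up to 3 could have been missed, which is 0.0308 to 0.0380 CPM in PB-MP libraries and 0.0285 to 0.0495 CPM in control libraries, covering counting error only. Of the 12 hepatocyte markers examined all had reads, led by Alb, so the tissue label held. Over all 17871 genes tested, 0 passed the threshold of 0.05 on the Benjamini-Hochberg adjusted p of edgeR's quasi-likelihood test, 2161 had an unadjusted p below 0.05 (3338 without control replicate 2), DESeq2 called 512 and limma-voom called 0. Of all genes tested, 7.35% were higher and 4.74% lower in PB-MP at an unadjusted p below 0.05, and 50.6% had a log2 fold change above 0 and 49.4% below, the background for the counts in each gene list.

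Levels of the members were compared per kilobase of transcript, using the median length of each gene's protein-coding transcripts in GENCODE M21. S100a10, with 161 ± 48.8 CPM per kb over the 6 libraries, and S100a1, with 161 ± 45.04 (SD, n = 6), stood highest and did not differ beyond their spread. Control replicate 1 held 7807 reads of each. S100a16 followed at 21.6 ± 5.07 CPM per kb and S100a11 at 12.2 ± 5.96. S100a6 had 2.09 ± 0.703, S100a9 1.56 ± 1.34, S100a4 1.52 ± 0.323 and S100a8 0.931 ± 0.465 CPM per kb, and within these 4 the neighbours in order overlapped. Csf3r was the lowest at 0.347 ± 0.187 CPM per kb, and S100a13 was present in 2 libraries only. S100a1 and S100a10 together took 84.2% to 89.3% of the reads of the 9 S100 genes in PB-MP libraries and 85.7% to 87.0% in control libraries.

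**Figure D1:**
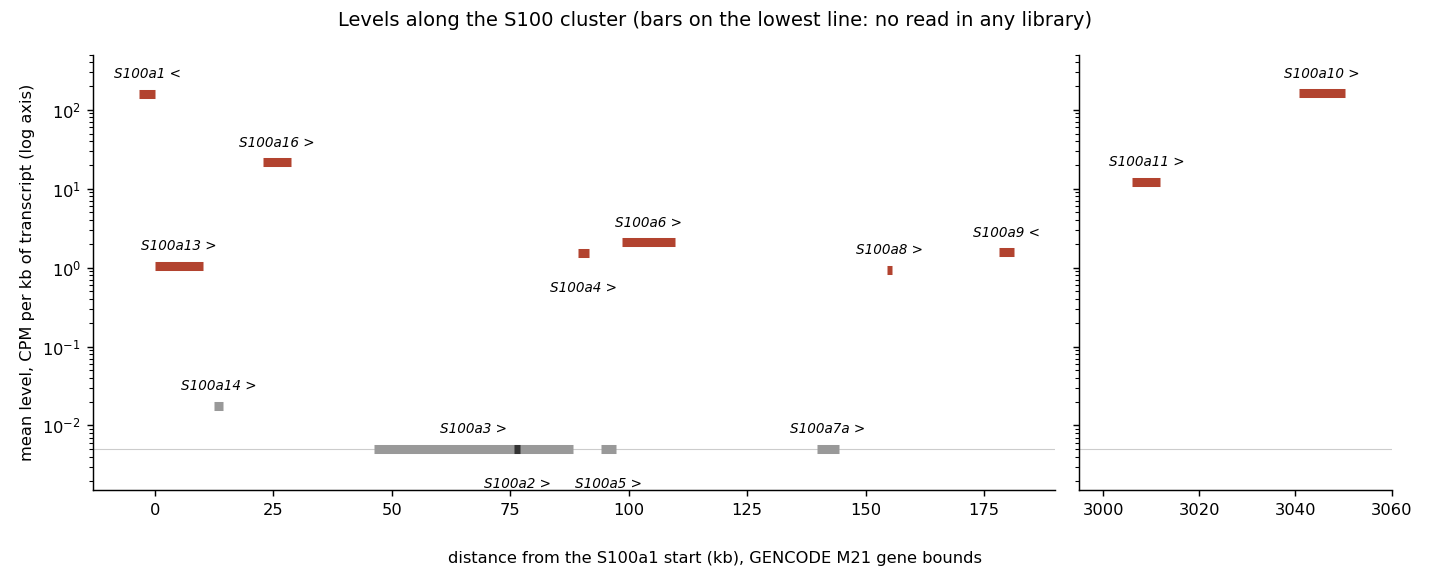
Mean level of S100 genes of chromosome 3 over all 6 libraries, in CPM per kb of transcript on a log axis, against distance from the S100a1 start in kb (left panel, the main cluster; right panel, S100a11 and S100a10). Red bars are genes of the list, grey bars other S100 genes, bar ends are the gene's bounds and arrows its strand. S100a1 and S100a10 stand near 161 CPM per kb, while S100a2 (drawn darker inside S100a3), S100a3, S100a5 and S100a7a lie on the lowest line because they had no read in any library.

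In the plot of levels along the chromosome, the abundant S100a1 lies at an outer end of the main cluster. S100a10, also abundant, lies apart from that cluster, 3041 kb from the S100a1 start. Within the main cluster, the silent S100a3, with the silent S100a2 inside its bounds, lies between S100a16 and S100a4. The silent S100a5 and S100a7a lie among the weakly expressed S100a4, S100a6, S100a8 and S100a9. Of the 10 other genes on the family list, 7 had 0 reads in all 6 libraries (S100a2, S100a3, S100a5, S100a7a, S100a7l2, S100g and S100z). S100a14 had 6, 0 and 2 reads in PB-MP replicates 1, 2 and 3, against 0 in each control library. S100b, an astrocyte protein, had 0, 0 and 5 reads in PB-MP replicates 1, 2 and 3, and 0, 0 and 5 in control replicates 1, 2 and 3. S100pbp encodes an S100P-binding protein and not an S100 protein, and was the only one of these 10 tested (log2 fold change 0.21 ± 0.54 (SE), edgeR adjusted p = 0.906).

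The genes of calprotectin and of the G-CSF receptor were the members with more reads in every PB-MP library than in any control library, before and after scaling. S100a8 had 42, 41 and 81 reads in PB-MP replicates 1, 2 and 3, against 25, 22 and 17 in control replicates 1, 2 and 3. All PB-MP libraries lay above all control libraries, and PB-MP replicate 3 was the highest. Scaled, this was 0.616 ± 0.188 CPM in PB-MP and 0.289 ± 0.111 CPM in control (SD, n = 3 each), a log2 fold change of 1.10 ± 0.44 (SE; 95% interval 0.06 to 2.14; edgeR adjusted p = 0.389).

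S100a9, the gene of the partner chain, had 58, 83 and 205 reads in PB-MP replicates 1, 2 and 3, against 26, 18 and 38 in control replicates 1, 2 and 3. The control libraries lay close together at 0.297 to 0.361 CPM, whereas the PB-MP libraries spread from 0.735 to 2.10 CPM with replicate 3 at the top. Its means were 1.27 ± 0.729 CPM in PB-MP and 0.338 ± 0.0359 CPM in control (SD, n = 3 each). The log2 fold change was 1.91 ± 0.45 (95% interval 0.84 to 2.97), furthest from 0 among the members, with an edgeR adjusted p of 0.239. DESeq2, run as an alternative, called it at an adjusted p of 0.0210.

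Csf3r had 121, 108 and 208 reads in PB-MP replicates 1, 2 and 3, against 63, 31 and 63 in control replicates 1, 2 and 3. The groups again did not overlap, with the lowest PB-MP library at 1.28 CPM and the highest control library at 0.864 CPM. Means were 1.65 ± 0.440 CPM in PB-MP and 0.658 ± 0.184 CPM in control (SD, n = 3 each), a log2 fold change of 1.32 ± 0.33 (95% interval 0.54 to 2.11; edgeR adjusted p = 0.243, DESeq2 adjusted p = 0.0516).

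**Figure D2:**
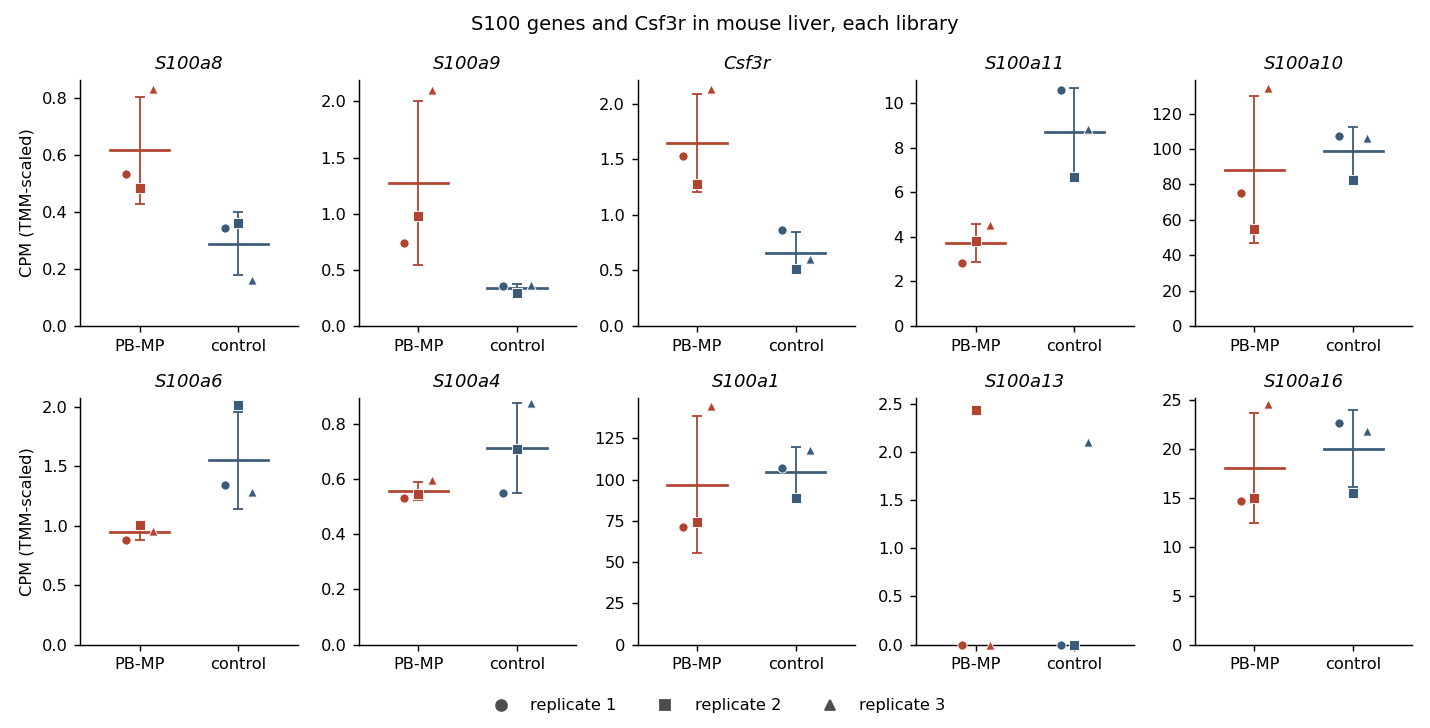
TMM-scaled CPM of each of the 10 genes in every library, PB-MP left and control right, with symbols for replicate number, a line at the group mean and a bar of 1 SD (n = 3 each; S100a13 is drawn without mean and SD). S100a8, S100a9 and Csf3r stand higher in all PB-MP libraries, S100a11 and S100a6 lower, and the other groups overlap.

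The share of S100a9 in the reads of the calprotectin genes varied between libraries. S100a9 made up 58.0%, 66.9% and 71.7% of the S100a8 and S100a9 reads in PB-MP replicates 1, 2 and 3, against 51.0%, 45% and 69.1% in control replicates 1, 2 and 3. The groups overlapped through control replicate 3, and the control shares rest on 40 to 55 reads each, with exact binomial 95% intervals as wide as 29.3% to 61.5% in control replicate 2. The pair together took 0.760%, 0.956% and 0.937% of the reads of the 9 S100 genes in PB-MP replicates 1, 2 and 3, against 0.280%, 0.335% and 0.201% in control replicates 1, 2 and 3. In this measure, which needs no scaling between libraries, the groups did not overlap.

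**Figure D3:**
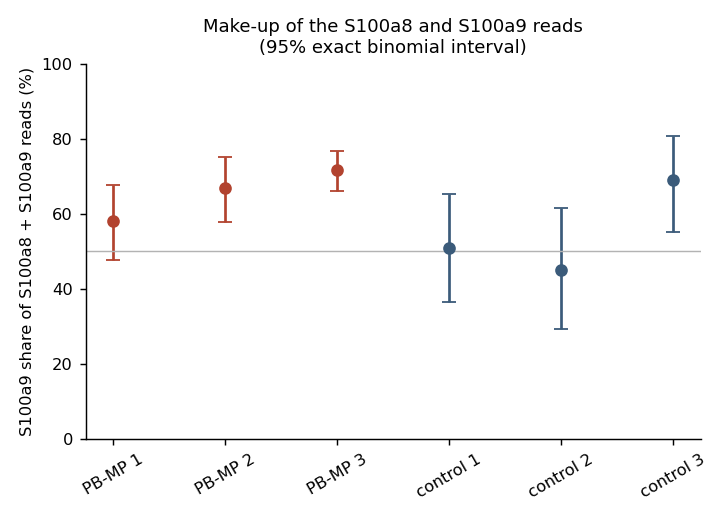
Share of S100a9 among the reads of S100a8 and S100a9 in percent, for each PB-MP library (red) and each control library (blue), with the exact binomial 95% interval, which covers counting error only. The grey line marks 50%; PB-MP libraries run from 58.0% to 71.7% and control libraries from 45% to 69.1%.

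Several granule and surface genes that define neutrophils had no read. Of 30 neutrophil markers, 24 had a read and 6 had 0 reads in all libraries, namely Ly6g, Mpo, Ctsg, Camp, Trem1 and Stfa1. Ngp, a granule protein, had 0, 7 and 0 reads in PB-MP replicates 1, 2 and 3 and 0, 9 and 3 in control replicates 1, 2 and 3. Of the 14 markers tested, 0 passed over all genes in edgeR. At an unadjusted p below 0.05, 1 (Fpr2, another formyl peptide receptor) was higher and 0 were lower, beside 7.35% and 4.74% of all genes. The median log2 fold change of the 14 was 0.25, against 0.01 for all genes tested. In sign, 9 were above 0 and 5 below, beside 50.6% and 49.4% of all genes. Without overlap, 2 (Retnlg and Mmp9) were higher and 1 (Elane, -0.79 ± 0.45) was lower, beside 11.4% and 8.49% of all genes. Fpr1, a formyl peptide receptor of neutrophils and monocytes, had 75, 89 and 349 reads in PB-MP replicates 1, 2 and 3, against 24, 37 and 125 in control replicates 1, 2 and 3, so the groups overlapped. Retnlg, a resistin-like gene of neutrophils, had 19, 34 and 40 reads in PB-MP replicates 1, 2 and 3, against 13, 0 and 14 in control replicates 1, 2 and 3 (edgeR adjusted p = 0.480). Itgam, the integrin chain CD11b of myeloid cells, pointed the other way at a log2 fold change of -1.05 ± 0.51 (edgeR adjusted p = 0.455). Ncf1, a subunit of the phagocyte NADPH oxidase, had a log2 fold change of 0.38 ± 0.32 (edgeR adjusted p = 0.680).

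The summed level of the 30 markers was 225 to 499 CPM in PB-MP and 254 to 305 CPM in control, but 141630 of its 152723 reads came from Wfdc21. Without Wfdc21 and the acute phase gene Lcn2, left out after their values were seen, the other 28 markers summed to 17.9, 15.6 and 21.6 CPM in PB-MP replicates 1, 2 and 3, against 14.5, 18.4 and 13.9 CPM in control replicates 1, 2 and 3. The groups overlapped in that sum, and Cybb, an oxidase subunit that macrophages also express, gave 7.34 to 9.19 CPM of it in PB-MP and 6.86 to 9.62 CPM in control. In bulk tissue, fewer cells of a type and less RNA per cell cannot be told apart, and the part of cell numbers in these results was not tested.

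The summed level of macrophage markers was highest in PB-MP replicate 3, where S100a8, S100a9 and Csf3r were also highest. The 15 Kupffer cell and macrophage markers summed to 204, 180 and 387 CPM in PB-MP replicates 1, 2 and 3, against 171, 153 and 185 CPM in control replicates 1, 2 and 3, and the groups overlapped. None of the 15 was at 0, 14 had a log2 fold change above 0, 0 passed in edgeR, 3 were higher at an unadjusted p below 0.05 (beside 50.6% and 7.35% of all genes) and the median was 0.55. Marco, a scavenger receptor of macrophages, had 4.46, 4.61 and 30.3 CPM in PB-MP replicates 1, 2 and 3, against 3.38, 3.51 and 1.55 CPM in control replicates 1, 2 and 3, and DESeq2 called it (adjusted p = 0.0354). Lyz2, the lysozyme of monocytes, macrophages and neutrophils, had 125 CPM in PB-MP replicate 3 and between 19.7 and 42.8 CPM in the other 5 libraries. The 12 monocyte markers summed to 53.9 to 173 CPM in PB-MP and 57.8 to 73.7 CPM in control, with a median log2 fold change of 0.02. The part of macrophages in the S100a8 and S100a9 reads was not tested. Without PB-MP replicate 3 the log2 fold changes were 0.82 for S100a8, 1.33 for S100a9 and 1.09 for Csf3r.

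**Figure D4:**
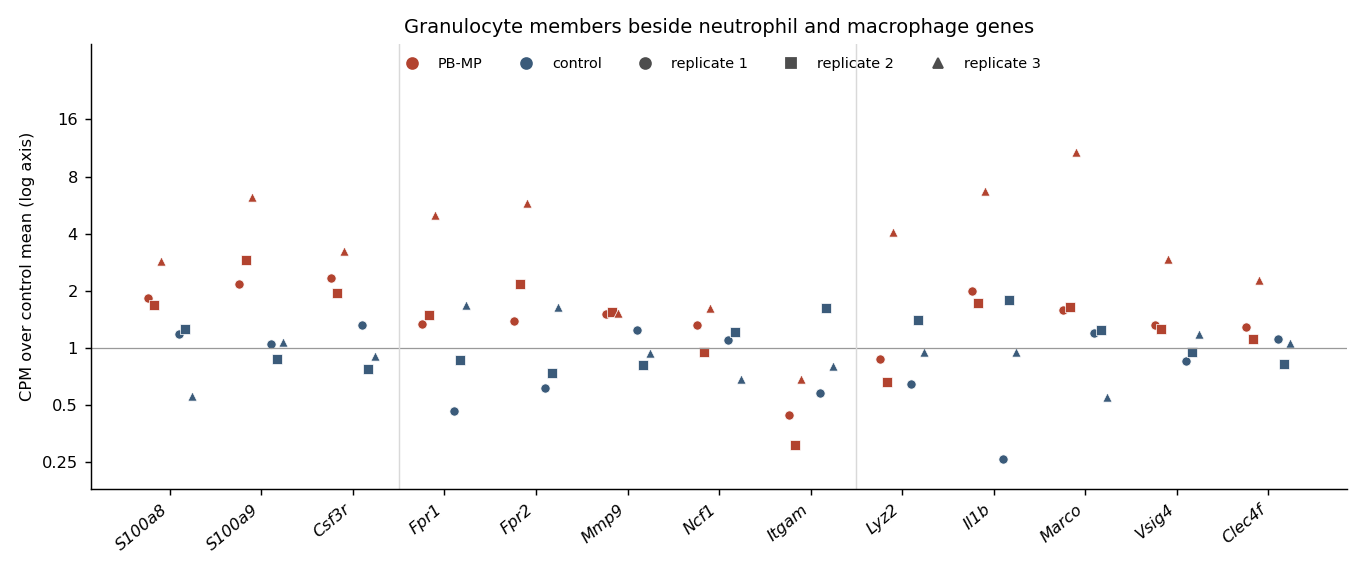
CPM of S100a8, S100a9 and Csf3r (left), neutrophil markers (middle) and Lyz2, Il1b and macrophage markers (right) in each library, divided by the mean of the control libraries, on a log axis with PB-MP in red left of control in blue. PB-MP replicate 3 (red triangles) is the highest library for every gene shown except Mmp9 and Itgam, and Marco reaches 30.3 CPM there. The neutrophil markers drawn were chosen after their values were seen. Of the 14 tested, 9 had a log2 fold change above 0 and 5 below, beside 50.6% and 49.4% of all genes.

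Signals that recruit neutrophils or act through Csf3r were looked at beside it. Csf3, which encodes G-CSF itself, had 0 reads in all 6 libraries. Of the 13 tested genes of its signalling list, 0 passed in edgeR and 0 had an unadjusted p below 0.05, and the median log2 fold change was -0.16. Socs3, a feedback inhibitor of the receptor, had a log2 fold change of 0.39 ± 0.22 and the kinase Jak1 one of -0.30 ± 0.15. Of the 8 tested genes of neutrophil attraction, 6 had a log2 fold change above 0 and 2 below, beside 50.6% and 49.4% of all genes. Without overlap, 3 were higher and 0 lower, beside 11.4% and 8.49% of all genes. In edgeR 0 passed, and 2 were higher at an unadjusted p below 0.05, beside 7.35% of all genes. They were Cxcl1, a ligand of the neutrophil receptor Cxcr2, with 551, 330 and 549 reads in PB-MP replicates 1, 2 and 3, against 98, 91 and 187 in control replicates 1, 2 and 3, and Selp, an endothelial adhesion molecule, at a log2 fold change of 0.79 ± 0.26. DESeq2 called Cxcl1 at an adjusted p of 2.75e-05. Cxcr2 had 11, 12 and 4 reads in PB-MP replicates 1, 2 and 3 and 8, 15 and 5 in control replicates 1, 2 and 3. Cxcl2, another ligand of Cxcr2, had 7, 22 and 15 reads in PB-MP replicates 1, 2 and 3 and 3, 0 and 4 in control replicates 1, 2 and 3. On the same list, Cxcl5 had 0 reads in each PB-MP library and 8, 4 and 0 in control replicates 1, 2 and 3. Ppbp had a log2 fold change of -0.34 ± 0.39 with overlap, and Cxcl3 had 0 reads in all 6 libraries.

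Markers of blood cells were set beside these values. The 6 erythroid markers in the table summed to 600, 430 and 633 CPM in PB-MP replicates 1, 2 and 3, against 489, 264 and 507 CPM in control replicates 1, 2 and 3. These sums overlapped, and control replicate 2 was the lowest. The 10 T and NK cell markers summed to 4.12 to 5.18 CPM in PB-MP and 5.33 to 8.99 CPM in control, a narrow gap, with a median log2 fold change of -0.40 over 9 tested. Of these, 8 had a log2 fold change below 0, beside 49.4% of all genes. Without overlap, 1 (Klrb1c) was higher and 2 (Cd3e and Trac) were lower, beside 11.4% and 8.49% of all genes. The 8 B and plasma cell markers summed to 35.9 to 72.2 CPM in PB-MP and 19.6 to 184 CPM in control. Much of that sum came from Igkc, an immunoglobulin light chain, with 19.1, 21.3 and 60.4 CPM in PB-MP replicates 1, 2 and 3, against 0.137, 124.5 and 0.114 CPM in control replicates 1, 2 and 3, and from Ighm, a heavy chain, with 28.2 CPM in PB-MP replicate 1. Of the 8, 6 had a log2 fold change below 0, beside 49.4% of all genes, and the median was -0.79. In edgeR 0 passed, and 1 was higher and 2 were lower at an unadjusted p below 0.05, beside 7.35% and 4.74% of all genes. Jchain, the joining chain of secreted antibodies, was lower without overlap and was called by DESeq2 (adjusted p = 0.00491). So the leukocyte lists did not all stand on the same side as S100a8, S100a9 and Csf3r.

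Annexin-binding S100 genes had fewer reads or overlapping values in PB-MP. S100a11, which binds annexin A1 and takes part in membrane repair, had 222, 324 and 441 reads in PB-MP replicates 1, 2 and 3, against 771, 405 and 932 in control replicates 1, 2 and 3. After scaling every PB-MP library lay below every control library, at 2.81 to 4.52 CPM in PB-MP and 6.68 to 10.6 CPM in control. The means were 3.72 ± 0.860 CPM in PB-MP and 8.71 ± 1.95 CPM in control (SD, n = 3 each), and the log2 fold change was -1.23 ± 0.27 (95% interval -1.87 to -0.59; edgeR adjusted p = 0.219). DESeq2 called S100a11 at an adjusted p of 0.0106.

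S100a11 has near-identical copies elsewhere in the annotation, so its reads may be split. Of the 50-base stretches of its transcripts, 41.1% occur in Gm12854, 23.4% in Gm7665 and 4.33% in Gm29240. Gm12854 had 25, 31 and 35 reads in PB-MP replicates 1, 2 and 3 and 34, 9 and 26 in control replicates 1, 2 and 3, which is small beside S100a11 in every library. Gm7665 had 2, 3 and 9 reads in PB-MP replicates 1, 2 and 3 and 20, 5 and 13 in control replicates 1, 2 and 3. Gm29240 had 1 read, in control replicate 3. S100a4 shares 47.4% of its stretches and 302 exon bases with the readthrough gene Gm42674 on the same strand, which had 0 reads in all libraries. Csf3r shares 8.84% of its stretches with AC105061.2, which was not analysed here, and under 1% with each of 189 other genes. The other 7 members share none.

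S100a10, also called p11, forms a tetramer with annexin A2 that docks plasminogen and membrane channels at the cell surface. It had 5951, 4623 and 13142 reads in PB-MP replicates 1, 2 and 3, against 7807, 5011 and 11193 in control replicates 1, 2 and 3. PB-MP held both the lowest and the highest library after scaling, and the log2 fold change was -0.16 ± 0.33 (95% interval -0.93 to 0.61; edgeR adjusted p = 0.874). Its sign turned with library size as the only scaling (0.06) and without PB-MP replicate 2 (0.09).

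The annexin that S100a10 binds did not overlap between the diets. Anxa2 had 10.3, 7.27 and 10.3 CPM in PB-MP replicates 1, 2 and 3, against 19.7, 13.8 and 17.6 CPM in control replicates 1, 2 and 3 (log2 fold change -0.88 ± 0.23, edgeR adjusted p = 0.25). There were 7.36, 7.52 and 13.1 S100a10 reads for each Anxa2 read in PB-MP replicates 1, 2 and 3, against 5.44, 5.97 and 6.06 in control replicates 1, 2 and 3. Anxa5, another annexin, had a log2 fold change of -0.78 ± 0.19 without overlap (edgeR adjusted p = 0.241). Anxa1, the partner of S100a11, was at -0.01 ± 0.29 and its groups overlapped. Of the 17 tested partners and receptors of S100 proteins, 14 had a log2 fold change below 0, beside 49.4% of all genes. In edgeR 0 passed, and 2 (Anxa2 and Anxa5) were lower at an unadjusted p below 0.05, beside 4.74% of all genes. The median of the 17 was -0.16.

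S100a6, also called calcyclin, is prominent in fibroblasts and epithelium. It had 69, 85 and 93 reads in PB-MP replicates 1, 2 and 3, against 98, 122 and 135 in control replicates 1, 2 and 3. All PB-MP libraries lay below all control libraries, with the gap between 1.005 CPM in PB-MP replicate 2 and 1.28 CPM in control replicate 3. The means were 0.944 ± 0.0655 CPM in PB-MP and 1.55 ± 0.405 CPM in control (SD, n = 3 each; log2 fold change -0.71 ± 0.28, 95% interval -1.37 to -0.05, edgeR adjusted p = 0.386).

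S100a4, which binds non-muscle myosin and is expressed in fibroblasts and leukocytes, had 42, 46 and 58 reads in PB-MP replicates 1, 2 and 3, against 40, 43 and 92 in control replicates 1, 2 and 3. The groups overlapped, through control replicate 1 at 0.549 CPM, and the log2 fold change was -0.35 ± 0.30 (95% interval -1.07 to 0.36; edgeR adjusted p = 0.681).

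The summed markers of mesenchymal cells lay below control in each PB-MP library, as S100a6 and S100a11 did. The 15 stellate and fibroblast markers summed to 192, 323 and 279 CPM in PB-MP replicates 1, 2 and 3, against 344, 351 and 344 CPM in control replicates 1, 2 and 3, without overlap. Dcn, whose own groups overlapped (log2 fold change -0.29 ± 0.24, edgeR adjusted p = 0.680), gave 88194 of the 152092 reads of the 15 markers. None was at 0, 13 of 14 tested had a log2 fold change below 0, 0 passed in edgeR, 6 were lower at an unadjusted p below 0.05 (beside 49.4% and 4.74% of all genes) and the median was -0.62. Col1a1, a chain of type I collagen, was at -1.04 ± 0.28 and was called by DESeq2 (adjusted p = 0.0452), and Vim, the intermediate filament vimentin, at -0.53 ± 0.22. Of the 5 adipocyte markers tested, 0 passed in edgeR and 3 (Cfd, Retn and Cidea) were lower at an unadjusted p below 0.05 without overlap. Of all genes, 4.74% were lower at that unadjusted p and 8.49% were lower without overlap. Of the same 5 markers, 2 had a log2 fold change above 0, beside 50.6% of all genes, and the median was -2.50. Cfd, the protease adipsin, had 57, 52 and 127 reads in PB-MP replicates 1, 2 and 3, against 635, 133 and 1260 in control replicates 1, 2 and 3, and was called by DESeq2 (adjusted p = 3.18e-05). The 8 adipocyte markers summed to 81.1 to 98.1 CPM in PB-MP and 53.3 to 170 CPM in control, and the fat-cell genes Lep at 0 and Adipoq at 0 to 9 reads were nearly without reads. The 10 cholangiocyte markers summed to 18.6 to 29.3 CPM in PB-MP and 12.3 to 27.8 CPM in control, and the 6 mesothelial markers to 1.5 to 3.85 CPM in PB-MP and 2.32 to 7.56 CPM in control. The part of any of these cells in the S100a6 and S100a11 values was not tested.

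S100a1, best known as a regulator of calcium cycling in heart and skeletal muscle, had 5617, 6298 and 14114 reads in PB-MP replicates 1, 2 and 3, against 7807, 5385 and 12427 in control replicates 1, 2 and 3. PB-MP replicate 3 was the highest library and PB-MP replicates 1 and 2 the lowest after scaling, at 145, 71.2 and 74.4 CPM, with control libraries between 88.9 and 118 CPM. The log2 fold change was -0.11 ± 0.30 (95% interval -0.82 to 0.59; edgeR adjusted p = 0.907), and its sign turned with library size as the only scaling (0.10), without PB-MP replicate 1 (0.07) and without PB-MP replicate 2 (0.04).

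S100a16, a widely expressed member with a role in fat cell formation in mice, had 1155, 1265 and 2391 reads in PB-MP replicates 1, 2 and 3, against 1649, 938 and 2293 in control replicates 1, 2 and 3. PB-MP replicate 3 was again the highest library after scaling, at 24.5 CPM, and the groups overlapped. The log2 fold change was -0.15 ± 0.27 (95% interval -0.78 to 0.49; edgeR adjusted p = 0.863), and it was 0.06 with library size only.

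S100a13, which takes part in the export of fibroblast growth factor 1 without a signal peptide, was all or none. It had 0, 206 and 0 reads in PB-MP replicates 1, 2 and 3, against 0, 0 and 221 in control replicates 1, 2 and 3. It was therefore present in 1 library of each diet, did not pass the filter on low counts and was not tested, and each 0 allows up to 3 reads. Its reads came to 3.27% of those of its head-to-head neighbour S100a1 in PB-MP replicate 2 and to 1.78% in control replicate 3. Of 11683 rows with at least 200 reads in some library, a limit set after these values were seen, 56 (0.479%) had 0 reads in another. In 5 rows both extremes occurred within each diet, namely S100a13, Zbtb41, 5830417I10Rik, Gm20716 and Gm21974, named after their values were seen. Whether the counting method or the tissue gave these zeros was not tested.

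**Figure D5:**
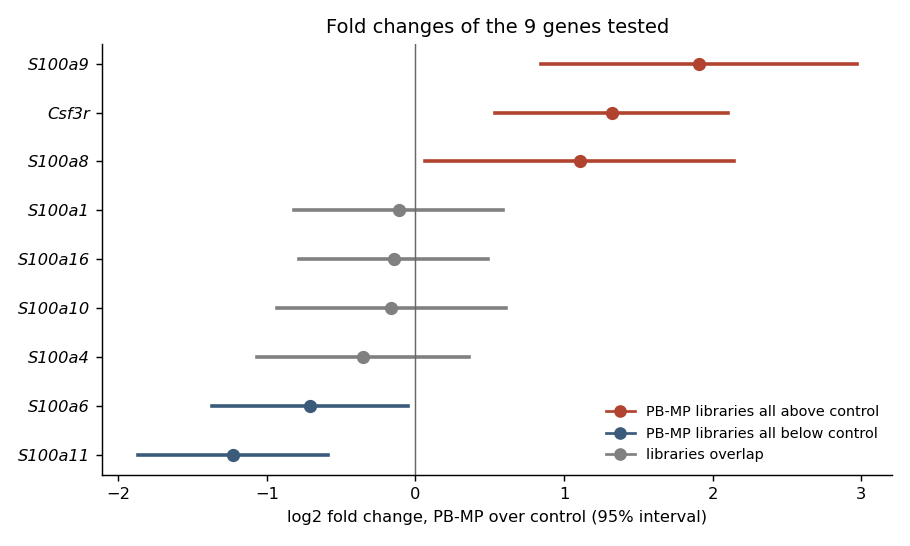
Log2 fold change of PB-MP over control with its 95% interval from the edgeR fit for the 9 genes tested, coloured by whether the PB-MP libraries all lie above (red) or below (blue) the control libraries or overlap with them (grey). S100a9 stands highest at 1.91 and S100a11 lowest at -1.23; the estimates of S100a1, S100a10 and S100a16, between -0.16 and -0.11, turn sign with library size as the only scaling.

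Set side by side, 9 of the 10 members were tested and 0 passed over all genes in edgeR, as for all genes (0%). At an unadjusted p below 0.05, 3 were higher in PB-MP, where 7.35% of all genes tested were, and 2 were lower, where 4.74% were. The same 3 and 2 were the members without overlap between the diets, beside 11.4% of all genes for higher and 8.49% for lower. DESeq2 called 1 member higher (S100a9) and 1 lower (S100a11), beside 1.72% and 0.719% of the genes it tested, and limma-voom called 0, as for all genes (0%). Of the 9, 3 had a log2 fold change above 0 and 6 below, beside 50.6% and 49.4% of all genes tested. The median log2 fold change of the 9 was -0.15, against 0.01 for all genes tested. Because the list was drawn up with these values known, nothing is read from the counts against their background.

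The members fell into different patterns over the 6 libraries. Likeness was measured as the root mean square difference of log2 CPM, each gene centred on its own mean, among tested genes averaging 1 CPM or more. S100a1 was closest to Uqcr10, a subunit of respiratory complex III, at 0.036 log2 units, to Mrpl12, a mitochondrial ribosomal protein, at 0.044, and to Cst3, cystatin C, at 0.046, while its own spread was 0.36. S100a10 was closest to Leap2, an antimicrobial and hormone peptide of liver, at 0.091, to Jmjd7 at 0.095 and to Dbi, an acyl-CoA binding protein, at 0.096. S100a16 was closest to Csnk2b, Pemt and Hes6 at 0.051, 0.056 and 0.058. All of these genes overlapped between the diets.

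The genes closest to S100a6 were Vim at 0.12, Map3k10 at 0.13 and Ero1b at 0.15, of which Vim is also a mesenchymal marker. S100a11 was closest to Gstp2, a glutathione transferase, at 0.11, to Csad, an enzyme of taurine synthesis, at 0.12, and to Uap1l1 at 0.18. S100a4 was closest to Hacd4, Nadk and Gon7 at 0.065, 0.083 and 0.085.

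Among the tested members, S100a9 had the most distant nearest gene. S100a8 was closest to Ccdc84, Ccnl1, a cyclin of splicing, and Ddb2, a DNA damage-binding protein, at 0.14, 0.15 and 0.16, with its own spread at 0.67. S100a9 was closest to Frmd4b, Dmpk and Snhg20 at 0.30, 0.30 and 0.32, with its own spread at 0.96, and Csf3r to Zfp579, Bcat2, a branched-chain transaminase, and Top3b, a topoisomerase, at 0.15, 0.15 and 0.17. None of these 9 genes is on a leukocyte marker list, but markers averaging below 1 CPM, such as Fpr2, Retnlg, Itgam and Cxcr2, were not compared. In all 9 the PB-MP libraries lay above the control libraries, which matching to members with that pattern favours. Likeness over 6 libraries is a description and says nothing of shared control.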

How the data were processed

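The values deposited by the authors are whole-number read counts for each gene symbol, not normalized, in a table of 56674 rows and 6 columns that was identical to the 6 single files. Per the labels' protocols, total RNA from liver was poly(A)-selected and made into directional libraries. Only bcl2fastq and the build GRCm39 appear in the submitters' processing notes. For the aligner, counting program, annotation, strand setting and multi-mapped reads the method is not given in the sources used here, so reads of copies or overlapping genes may be split or lost.

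Genes were kept by filterByExpr (minimum count 10, minimum total 15), scaled by TMM and tested in R 4.3.3 with edgeR 4.0.16 (quasi-likelihood), with Benjamini-Hochberg adjustment over 17871 genes at 0.05. The SE is the log2 fold change divided by the square root of F. DESeq2 1.42.0 and limma-voom (limma 3.58.1), other scalings and filters, a replicate block and omission of libraries were alternatives. The test was also run on counts simulated from its own fitted means and dispersions. That run checks the procedure and cannot show its performance on these libraries. Transcript lengths, gene bounds and 50-base matches came from GENCODE M21 (GRCm38) and promoter windows from RefSeq (GRCm38.p6), matched by symbol.

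The members, gene lists and alternatives were chosen with earlier results of these data known. Genes named beside the members are up to 3 per list, taken by p among genes averaging 1 CPM or more, a set of anchor genes (Anxa1, Anxa2, Csf3, Cxcr2, Ly6g, Mpo, Camp, Ngp, Retnlg, Cxcl1, Cxcl2, Itgam, Lyz2, Vim) and the 3 most alike genes per tested member. Other names, such as genes at 0 and those drawn beside the granulocyte members, were chosen after their values were seen. Some genes of the lists are not reported here by name.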

Additional observations from a re-analysis of the deposited data

How the results depend on the processing

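Of the members, S100a8, S100a9, Csf3r, S100a11, S100a6 and S100a4 kept the sign of their log2 fold change under every alternative run for them (16 or 17 each), with ranges of 0.80 to 1.33, 1.24 to 2.18, 0.93 to 1.56, -1.56 to -1.02, -0.83 to -0.48 and -0.52 to -0.13. The lowest adjusted p over these alternatives was 0.0210 for S100a9 and 0.0106 for S100a11, both from DESeq2, and no other alternative called a member. The signs of 3 members turned: with library size as the only scaling, where the median over all genes was 0.23 and not 0.01, S100a1 was at 0.10, S100a10 at 0.056 and S100a16 at 0.065. S100a1 was at 0.066 without PB-MP replicate 1 and 0.04 without PB-MP replicate 2, and S100a10 at 0.089 without PB-MP replicate 2. Over the libraries left out singly, S100a1 ran from -0.53 to 0.07, S100a10 from -0.60 to 0.09 and S100a16 from -0.44 to -0.02. Over all alternatives the ranges were -0.64 to 0.10, -0.73 to 0.09 and -0.60 to 0.06 for S100a1, S100a10 and S100a16. The lowest value of each came with control replicate 2 and PB-MP replicate 3 both omitted. The cause was not tested. Per kilobase levels with the longest transcript moved by less than their SD.

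The number of genes past the threshold was 512 with DESeq2, 2 (Dennd5b and Igkc) when control replicate 2 and PB-MP replicate 3 were both omitted, between 0 and 1 (Cyp4a32, without control replicate 1) with 1 library left out, and 0 otherwise. Genes at an unadjusted p below 0.05 numbered 1410 with at least 1 CPM in 3 libraries, where fewer genes are tested, 4185 with quality weights, 4316 with both of those libraries omitted, and 1472 to 3338 with 1 library left out, the highest without control replicate 2. Over all genes, libraries with the same number did not deviate together (correlations of -0.087, 0.094 and 0.082 for numbers 1, 2 and 3). With 3 libraries a diet this cannot show whether they share a batch or a pairing. With the replicate block, 1836 genes had an unadjusted p below 0.05, 0 passed, and the members kept their signs, S100a9 at 1.78. At 17 to 205 reads, S100a8 and S100a9 are limited by counting error as well as by the spread between libraries.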
